A study of Homo sapiens with 4 samples.

Results

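Actin, tropomyosin and contractile genes are described here in U87 cells, an established human glioblastoma line, with and without carnosine, the dipeptide beta-alanyl-L-histidine. The set holds 10 genes of the 58219 in the deposited count table, found by their symbols: the actins ACTB, ACTG1 and ACTA2, the tropomyosins TPM1, TPM2, TPM3 and TPM4, the actin-binding proteins TAGLN and CNN1, and the myosin light chain MYL9. There were 2 carnosine libraries, from cells kept for 24 h in medium with 50 mM carnosine, and 2 control libraries, from cells given fresh medium without it for the same time. Ribosomal RNA was depleted from total RNA, and all 4 libraries were read as pairs of 101 bases. The labels name 1 cell line, in the same medium with serum for both groups, and do not say that replicates came from separate cultures, so p values cover no more than the spread of these 4 libraries and that spread may be technical.

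Actin monomers join into polar filaments, and tropomyosins lie end to end along these filaments and set which other proteins can bind them. Non-muscle cells build stress fibres from such filaments and myosin II, whose regulatory light chain (such as MYL9) is phosphorylated to start contraction. ACTB and ACTG1 are the cytoplasmic actins of nearly all cells, while ACTA2, TAGLN (transgelin) and CNN1 (calponin) are best known from smooth muscle and from contractile fibroblasts. Many of these genes are textbook targets of serum response factor (SRF), which binds a DNA element called the CArG box. SRF acts with its MRTF cofactors, which sense the pool of free actin monomers.

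Library totals ran from 51632970 to 57728762 counts with carnosine and from 59155538 to 71766267 in controls, of which the 10 genes took 1.08% and 1.28% with carnosine and 1.41% and 1.52% in controls. Of the markers of glioblastoma and mesenchymal cells, VIM, NES, CD44, CHI3L1 and FN1 (5 of 5) were counted in every library, with sums of 11946 and 13312 CPM with carnosine and 13673 and 13041 CPM in controls. The smooth muscle markers MYH11 and MYOCD had no count, and the sum of the 5, nearly all of it SMTN, was 144 and 150 CPM with carnosine and 227 and 204 CPM in controls. Pericyte and fibroblast markers summed to 120 and 109 CPM with carnosine and 69.7 and 58.6 CPM in controls, and astrocyte markers, with AQP4 and S100B at 0, to 138 and 189 CPM with carnosine and 70.4 and 85.1 CPM in controls. Endothelial markers (CDH5 at 0) summed to 6.80 and 5.64 CPM with carnosine and 2.39 and 2.98 CPM in controls, and neuron markers (RBFOX3 and STMN2 at 0) to 12.2 and 9.85 CPM with carnosine and 18.7 and 15.4 CPM in controls. Sums were lower still for immune markers (AIF1 at 0), at most 1.21 CPM, and for skeletal and cardiac muscle markers (MYOD1 at 0), at most 0.457 CPM in any library. Sums can hide opposite changes within a list. Of 2 tested smooth muscle markers, SMTN had a log2 fold change of -0.55 and the other 2.14, which did not pass. Tested markers above and below 0 numbered 2 and 2 for pericytes and fibroblasts, and 1 and 1 each for neurons and immune cells. They numbered 3 and 2 for glioblastoma and mesenchymal cells, 2 and 0 each for astrocytes and endothelium, and 1 and 0 for skeletal and cardiac muscle. At an adjusted p under 0.05 in edgeR, 2 of 4 tested pericyte and fibroblast markers were called higher. So were 1 of 2 for astrocytes, 1 of 2 for endothelium and 1 of 5 for glioblastoma and mesenchymal cells. SMTN was called lower, and no tested marker of the remaining lists passed, beside 8.31% of all genes called either way. The part of these markers in the values of the 10 genes was not tested, and in RNA of whole cultures, fewer cells that express a gene and less RNA per cell cannot be told apart.

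Mean levels of 9 of these 10 genes were lower with carnosine, by 1.02-fold (MYL9) to 1.97-fold (CNN1), and 0 of the 10 passed the test over all genes. For comparison, 8149 of the 16340 genes tested had a log2 fold change below 0. Of the 9, MYL9, TPM4 and TAGLN turned positive in some fits with a library left out. All 10 passed the filter on low counts. At an adjusted p under 0.05 in edgeR's quasi-likelihood test, 0 rose and 0 fell, where 3.95% of the 16340 genes tested were called higher, 4.36% lower and 8.31% either way. The closest was TPM3, 1.41-fold lower with carnosine (adjusted p = 0.0521). At an unadjusted p under 0.05 there were 5 of the 10, TPM3, TPM1, CNN1 and ACTG1 lower and TPM2 higher, beside 27.4% of all genes. DESeq2 called 3 lower (TPM3, TPM1 and ACTG1) beside 7.21% of all genes, and limma-voom called 1 (TPM3) beside 4.25%. Their log2 fold changes had a median of -0.38 beside 0.0009 over all genes tested. Both carnosine libraries lay below both controls for 5 genes and above both for 1, where 28.8% and 27.8% of all genes did so (56.5% either way).

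**Figure D1:**
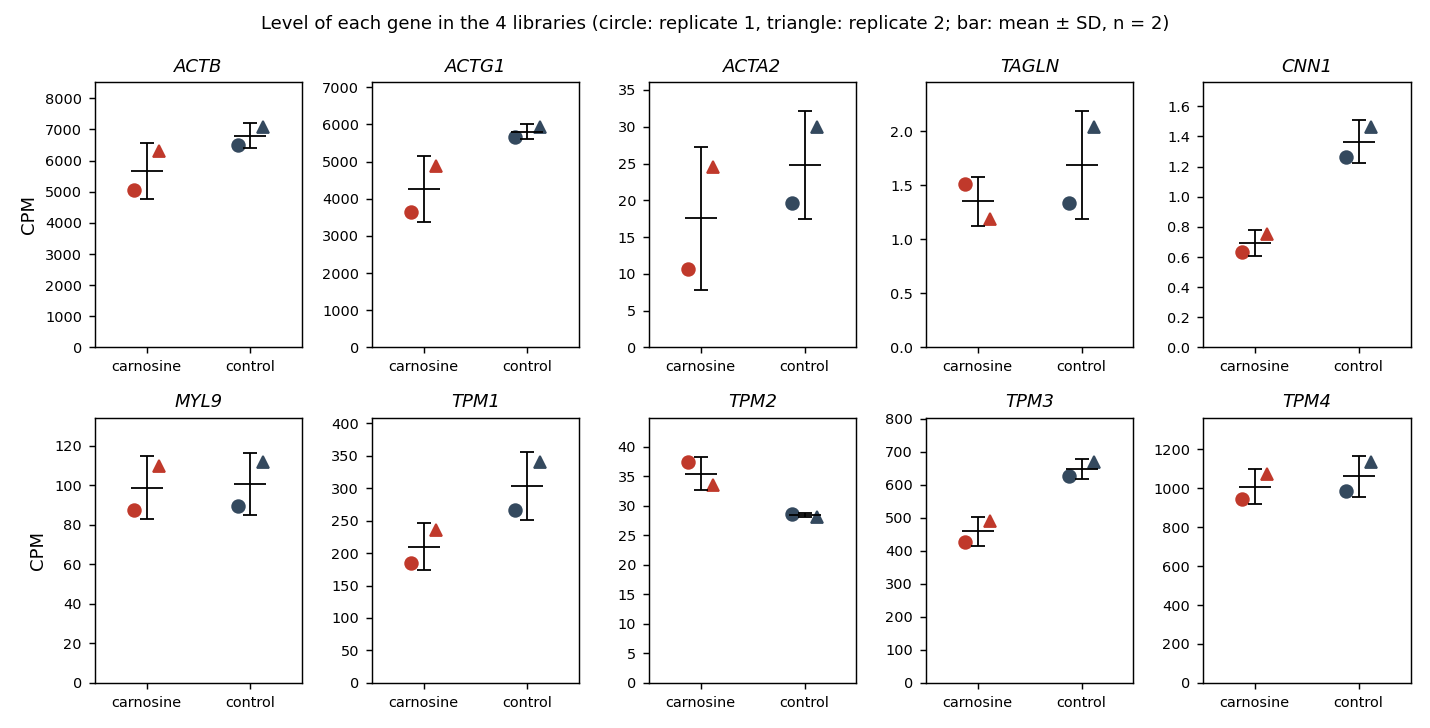
Counts scaled to library size (CPM, linear axis from 0) of each of the 10 genes in the 2 carnosine libraries (left in each panel) and the 2 control libraries (right), with circles for replicate 1, triangles for replicate 2 and bars for the mean ± SD. ACTB, ACTG1, CNN1, TPM1 and TPM3 have both carnosine points below both control points, TPM2 has both above, and the groups overlap for ACTA2, TAGLN, MYL9 and TPM4.

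The 2 cytoplasmic actins come from separate genes with nearly the same coding sequence, 91.2% identical over 1128 aligned bases. The first 60 coding bases (GENCODE 29 transcripts ACTB-201 and ACTG1-201, 5′ to 3′) are shown because they hold the start of the protein, where the actins are known to differ, and because reads of such close copies have to be told apart. Capitals mark the 10 bases that differ.
ACTB: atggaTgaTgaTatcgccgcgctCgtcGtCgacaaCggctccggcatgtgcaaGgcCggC
ACTG1: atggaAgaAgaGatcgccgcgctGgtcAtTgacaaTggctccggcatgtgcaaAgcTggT
ACTA2 was 81.8% identical to ACTB and 81.9% to ACTG1 in the coding bases. Among the tropomyosins, the longest complete coding sequences were 65.6% (TPM1 and TPM3) to 78.7% (TPM2 and TPM4) identical. These shares are over all aligned columns, gaps included. The TPM1 sequence had 981 bases against 855 to 858 in the others, which lowers the values of its pairs. Pairs without TPM1 were 74.2% (TPM3 and TPM4) to 78.7% identical. Despite this likeness, stretches as long as a read were nearly always their own: of 4410 distinct 101-base stretches in ACTB transcripts 2 also occurred in a transcript of another gene, ACTBP2, and of 3887 in ACTG1 transcripts 0 did. The highest share was 0.858%, for TPM4.

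ACTB (ENSG00000075624.13, chromosome 7, 5527147 to 5563784, minus strand, GRCh38) encodes beta actin. It had 303250 and 317880 counts in carnosine replicates 1 and 2, against 462807 and 416152 in control replicates 1 and 2. Scaled by library size, that is 5042 and 6312 CPM with carnosine, against 6509 and 7093 CPM in controls. Both carnosine libraries were below both controls, but the carnosine replicates stood 1.25-fold apart, more than the gap between carnosine replicate 2 and control replicate 1. The log2 fold change was -0.26 ± 0.16 (SE, n = 2 each; edgeR adjusted p = 0.356), with a 95% interval from -0.65 to 0.13. ACTB alone took 0.525% and 0.616% of all counts with carnosine, and 0.645% and 0.703% in controls.

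ACTG1 (ENSG00000184009.9, chromosome 17, 81509971 to 81523847, minus strand) encodes gamma actin. Its CPM values were 3629 and 4884 in carnosine replicates 1 and 2, against 5663 and 5941 in the controls. The carnosine replicates differed 1.35-fold and the controls 1.05-fold, and the groups did not overlap. ACTG1 was 1.36-fold lower with carnosine (log2 fold change -0.45 ± 0.18 SE, 95% interval -0.86 to -0.03, edgeR adjusted p = 0.158). That adjusted p was 0.0466 in DESeq2 and 0.0116 without carnosine replicate 2, where the log2 fold change was -0.68. It did not pass in limma-voom (0.138), nor without carnosine replicate 1 (log2 fold change -0.25, adjusted p = 0.232), control replicate 1 (-0.49, 0.372) or control replicate 2 (-0.42, 0.496).

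ACTA2 (ENSG00000107796.13, chromosome 10, 88935074 to 88991339, minus strand) encodes the alpha actin of smooth muscle. It had 644 and 1232 counts with carnosine, against 1395 and 1762 in controls, or 10.7 and 24.5 CPM against 19.6 and 30.0 CPM. The groups overlapped, and replicates differed 2.28-fold with carnosine and 1.53-fold in controls, the widest spread of the 10 genes in the carnosine libraries. The log2 fold change was -0.50 ± 0.37 (SE, edgeR adjusted p = 0.437). It ranged from -0.02 without carnosine replicate 1 (adjusted p = 0.967) to -1.22 without carnosine replicate 2 (0.0148), with -0.78 without control replicate 1 and -0.16 without control replicate 2. Of the exonic bases of ACTA2, 380 lie under exons of FAS and 516 under ACTA2-AS1 on the other strand, and whether the counting used strand was not stated (not given in the sources used here). FAS, a death receptor, had 800 and 927 counts with carnosine and 1127 and 922 in controls, and ACTA2-AS1 had 87 and 58 with carnosine and 76 and 29 in controls.

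Levels of different genes can be set side by side only per length, in TPM, a unit and not the tropomyosin symbol, here counts over merged exon length scaled to a common sum. ACTB had 4042 and 4002 TPM with carnosine, against 4864 and 4987 TPM in controls, and ACTG1 had 3421 and 3641 TPM with carnosine, against 4976 and 4912 TPM in controls. In the controls these 2 levels overlapped, and with carnosine ACTG1 was below ACTB in both libraries. The overlap in controls depends on the length used. With longest transcripts, ACTG1 had a lower mean than ACTB in controls too (5256 against 6187 TPM), as with carnosine (3800 against 5112 TPM). By merged exon length, ACTB and ACTG1 ranked 10 and 11 by mean TPM among 57881 genes with a length. The ratio of ACTG1 to ACTB counts, in which library scaling and length cancel between groups, was 0.720 and 0.774 with carnosine and 0.870 and 0.838 in controls. Of the 3 actins, ACTG1 thus made up 46.6% ± 1.24 of the sum per length with carnosine and 50.0% ± 0.70 in controls (SD, n = 2 each), a difference of -3.34 percentage points. The groups did not overlap, and an exact permutation test gave p = 0.333, the smallest that 2 libraries against 2 allow. ACTA2 was 0.136% and 0.239% of the actin sum with carnosine and 0.176% and 0.252% in controls, which overlap.

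For ACTB with carnosine, replicates lay closer together per length (TPM) than in CPM, because these scales divide by different library sums. The same held for the other genes except TPM2 and TAGLN, whose carnosine replicates lay further apart in TPM. TPM1, for example, had 184 and 236 CPM but 40.3 and 40.8 TPM with carnosine, and TPM2 had 37.4 and 33.4 CPM but 32.5 and 23.0 TPM. The spread between carnosine replicates given for a gene thus depends on the scale. When TPM denominators served as library sizes, a setting chosen after the values were seen, ACTG1 was the 1 gene of the 10 past the edgeR test (log2 fold change -0.49, adjusted p = 0.0227) and ACTB had -0.29 (0.137). That setting called 323 genes in all (0.765% of all genes lower), against 1358 with TMM scaling.

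TPM3 (ENSG00000143549.19, chromosome 1, 154155304 to 154194648, minus strand), a tropomyosin of slow muscle and of many non-muscle cells, came nearest to the threshold. It had 25704 and 24635 counts with carnosine, against 44591 and 39238 in controls, or 427 and 489 CPM against 627 and 669 CPM. Both carnosine libraries were below both controls, by more than the replicates of either group differed. The log2 fold change was -0.50 ± 0.12 (SE, n = 2 each; 95% interval -0.79 to -0.21, edgeR adjusted p = 0.0521). It passed in limma-voom (adjusted p = 0.0467), in DESeq2 (0.0023), with total counts only (0.0395, a setting that called 3.26% of all genes lower) and without carnosine replicate 2 (0.0233). It did not pass without carnosine replicate 1 (adjusted p = 0.0872), control replicate 1 (0.159) or control replicate 2 (0.276), nor with TPM denominators as library sizes (0.0856).

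TPM1 (ENSG00000140416.19, chromosome 15, 63042632 to 63071915, plus strand) encodes the alpha tropomyosins. Its CPM values were 184 and 236 with carnosine, against 267 and 341 in controls. The groups did not overlap, while replicates differed 1.28-fold in both groups. It was 1.45-fold lower with carnosine (log2 fold change -0.53 ± 0.17 SE, 95% interval -0.93 to -0.14, edgeR adjusted p = 0.0966). DESeq2 gave an adjusted p of 0.0238, and it was 0.0256 without carnosine replicate 2, with a log2 fold change of -0.73. Without the other libraries the log2 fold change was -0.37 (carnosine replicate 1), -0.70 (control replicate 1) and -0.35 (control replicate 2).

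TPM2 (ENSG00000198467.13, chromosome 9, 35681992 to 35690121, minus strand) encodes beta tropomyosin and was the 1 gene of the 10 with a positive log2 fold change. It had 2249 and 1684 counts with carnosine, against 2037 and 1649 in controls, or 37.4 and 33.4 CPM against 28.6 and 28.1 CPM. Both carnosine libraries were above both controls on that scale, and in TPM (32.5 and 23.0 with carnosine, 23.2 and 21.4 in controls) the groups overlapped. The log2 fold change was 0.32 ± 0.11 (SE, 95% interval 0.07 to 0.57, edgeR adjusted p = 0.110).

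TPM4 (ENSG00000167460.14, chromosome 19, 16067021 to 16103005, plus strand), a tropomyosin of non-muscle cells, was the most abundant of the 4 per length. It had 945 and 1071 CPM with carnosine, against 986 and 1136 CPM in controls, and the groups overlapped. The log2 fold change was -0.07 ± 0.13 (SE, 95% interval -0.39 to 0.24, edgeR adjusted p = 0.772), and it was 0.01 without carnosine replicate 1 and 0.03 without control replicate 2.

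Within the tropomyosin family, the carnosine libraries held a higher share of TPM4 and TPM2 and a lower share of TPM3 and TPM1 than the controls. TPM4 made up 58.8% in each carnosine library, against 52.3% and 53.4% of the family sum per length in controls. TPM3 made up 27.4% and 27.6% with carnosine and 34.2% and 32.4% in controls, and TPM1 7.68% and 8.67% with carnosine and 9.48% and 10.7% in controls. TPM2 made up 6.18% and 4.88% with carnosine and 4.04% and 3.51% in controls. None of these 4 shares overlapped between the groups, and exact permutation tests gave p = 0.333 for each, the smallest value possible here (7 shares were tested in the 2 families, so the design allows no adjusted value below that). Shares of 1 family sum to a fixed whole, so these 4 are not separate results, and a higher share need not mean a higher level. The log2 fold changes were -0.07 for TPM4, 0.32 for TPM2, -0.50 for TPM3 and -0.53 for TPM1. TPM4 averaged 58.8% ± 0.027 with carnosine and 52.8% ± 0.79 in controls (SD, n = 2 each), a difference of 5.96 percentage points. The differences were -5.78 points for TPM3, -1.93 for TPM1 and 1.76 for TPM2. For TPM2 it was 1.11 points without carnosine replicate 1 and 0.73 with coding length in place of merged exons. The ratio of TPM4 to TPM1 counts, free of length and scaling, was 5.13 and 4.55 with carnosine and 3.70 and 3.33 in controls.

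**Figure D2:**
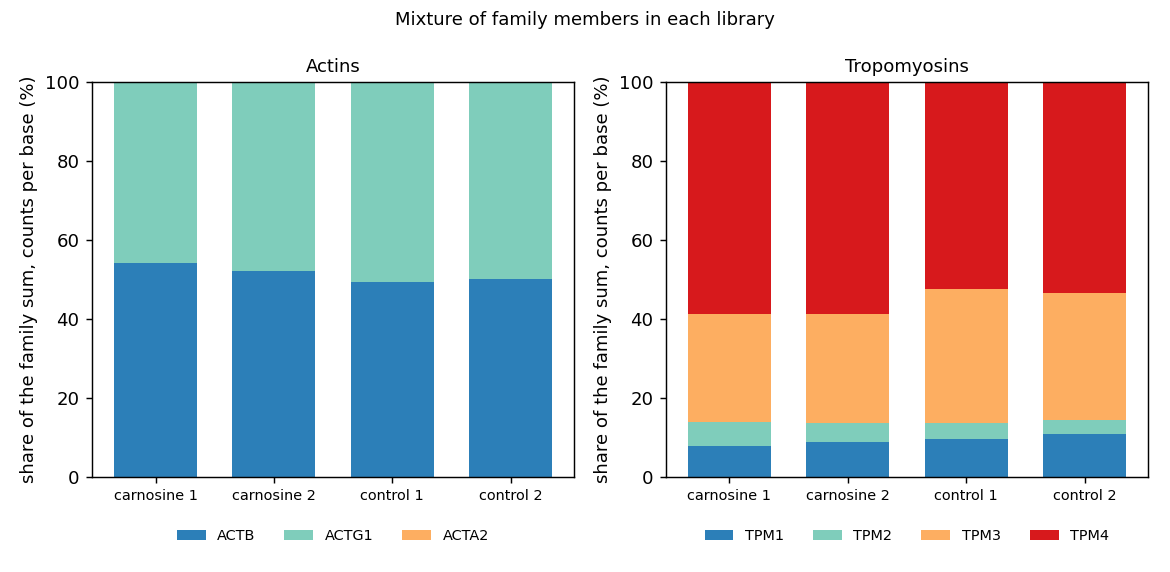
Stacked bars give the share (%) of each gene in the sum of counts per base of merged exons, for the 3 actins (left) and the 4 tropomyosins (right), in the carnosine libraries and then the control libraries. The TPM4 part is 58.8% in both carnosine bars and 52.3% and 53.4% in the control bars, and ACTA2 is too thin to see, at 0.252% or less.

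MYL9 (ENSG00000101335.9, chromosome 20, 36541484 to 36551447, plus strand), a regulatory light chain of myosin II, had nearly equal levels in both groups. It had 87.6 and 110.0 CPM in carnosine replicates 1 and 2, against 89.5 and 111.9 CPM in control replicates 1 and 2. Replicates thus stood further apart, 1.26-fold and 1.25-fold, than the groups. The log2 fold change was -0.03 ± 0.15 (SE, 95% interval -0.39 to 0.34, edgeR adjusted p = 0.931). It was 0.13 without carnosine replicate 1 and 0.14 without control replicate 2.

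TAGLN and CNN1, actin-binding proteins best known from smooth muscle, had few counts. TAGLN (ENSG00000149591.16, chromosome 11, 117199321 to 117204782, plus strand) had 91 and 60 counts with carnosine and 95 and 120 in controls, or 1.51 and 1.19 CPM against 1.34 and 2.05 CPM. The groups overlapped (log2 fold change -0.32 ± 0.33 SE, edgeR adjusted p = 0.591), and the value was 0.02 without control replicate 2. Of its exonic bases, 446 lie under PCSK7 on the opposite strand, which had 2469 and 1492 counts with carnosine and 3460 and 2574 in controls. CNN1 (ENSG00000130176.7, chromosome 19, 11538717 to 11550323, plus strand) had 38 counts in each carnosine library, against 90 and 86 in controls. This was the largest fold of the 10 genes, 1.97-fold lower with carnosine (log2 fold change -0.98 ± 0.33 SE, 95% interval -1.75 to -0.21), and with an edgeR adjusted p of 0.110 it did not pass. It did not pass in DESeq2 (adjusted p = 0.145) or limma-voom (0.113) either.

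**Figure D3:**
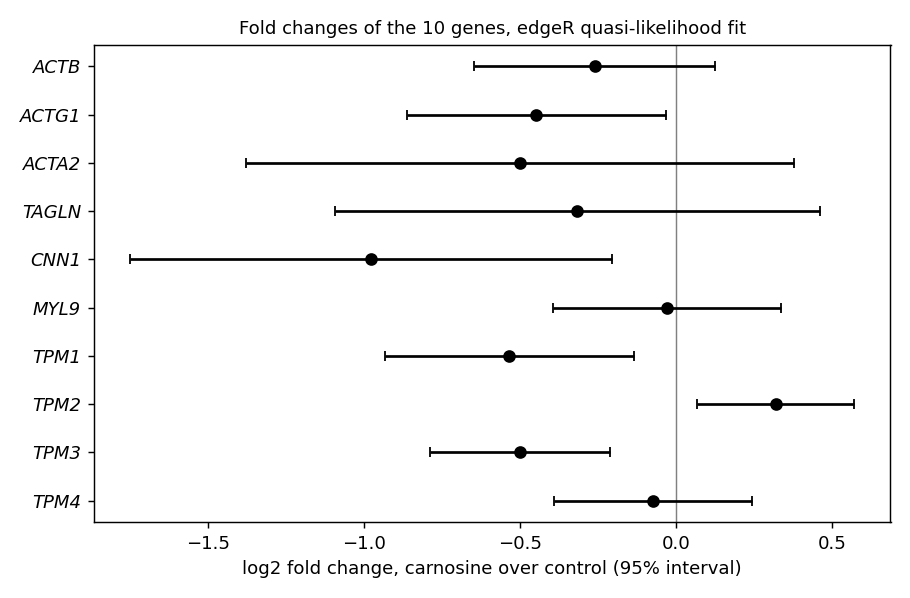
Log2 fold changes of the 10 genes, carnosine over control, from edgeR with all 4 libraries (points) and their 95% intervals (bars), where 0 means equal levels. Before adjustment over all genes the intervals of ACTG1, CNN1, TPM1 and TPM3 lie below 0 and that of TPM2 above 0, and the others span 0.

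Per length, the order of the 10 genes by mean TPM was ACTB, ACTG1, TPM4, TPM3, MYL9, TPM1, TPM2, ACTA2, TAGLN and CNN1. TPM4 had 308.8 and 276.9 TPM with carnosine and 300.5 and 325.5 TPM in controls, and TPM3 144 and 130 TPM with carnosine and 197 and 197 TPM in controls. MYL9 had 87.6 and 87.0 TPM with carnosine and 83.5 and 98.1 TPM in controls, above TPM1 with 40.3 and 40.8 TPM with carnosine and 54.5 and 65.4 TPM in controls. Neighbours whose control libraries overlapped were ACTB and ACTG1, TPM2 and ACTA2 (17.3 and 25.0 TPM in controls), and TAGLN and CNN1. TAGLN had 1.09 and 0.679 TPM with carnosine and 0.897 and 1.29 TPM in controls, and CNN1 had 0.617 and 0.583 TPM with carnosine and 1.15 and 1.26 TPM in controls. The order depends on the length used: the merged exons of TPM1 span 12876 bases and its longest transcript 3957, and with longest transcripts TPM1 (107 TPM with carnosine, 156 TPM in controls) stood above MYL9 (70.8 TPM with carnosine, 72.8 TPM in controls).

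Leaving out single libraries moved several of these values. Without carnosine replicate 2, 4 of the 10 genes passed as lower, ACTG1, ACTA2, TPM1 and TPM3, beside 5.03% of all genes, and without each of the other 3 libraries 0 passed. The median log2 fold change of the 10 genes was -0.52 without carnosine replicate 2, -0.18 without carnosine replicate 1, -0.52 without control replicate 1 and -0.18 without control replicate 2. Signs turned positive for MYL9 and TPM4 without carnosine replicate 1 or control replicate 2, and for TAGLN without control replicate 2. Over all genes, 1268 were called without carnosine replicate 1, 1595 without carnosine replicate 2, 635 without control replicate 1 and 505 without control replicate 2, against 1358 with all 4. With 1 library left out the lone library of its group is assumed to vary like the other group, with 1 residual degree of freedom.

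**Figure D4:**
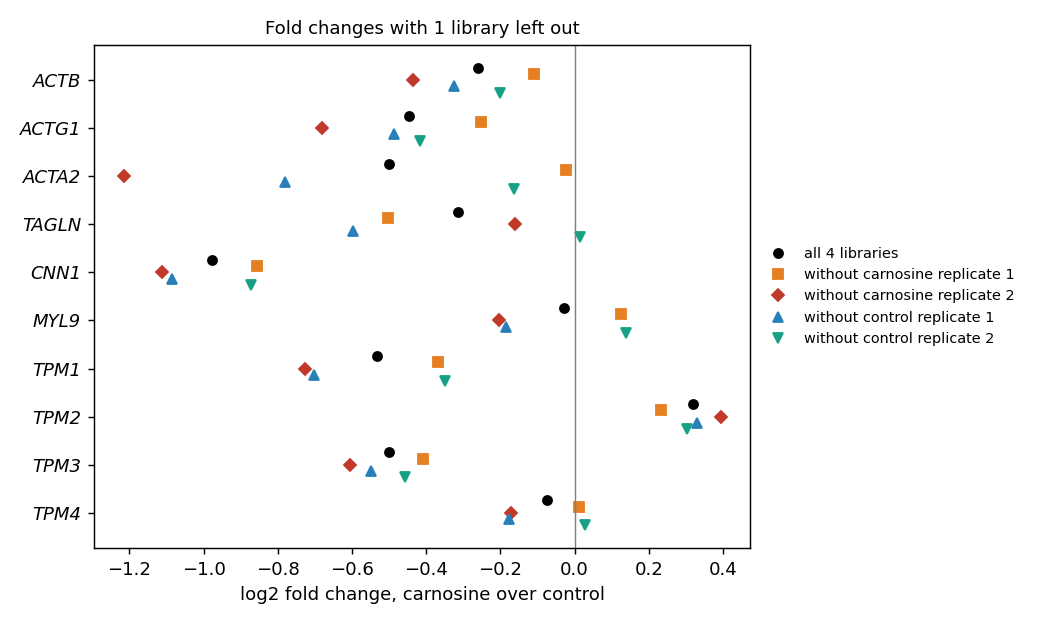
Log2 fold changes of the 10 genes, carnosine over control, with all 4 libraries (black circles) and with each library left out in turn (other symbols). ACTB, ACTG1, ACTA2, CNN1, TPM1 and TPM3 stay below 0 and TPM2 above 0 in all 5 fits, and ACTA2 spans the widest range, from -1.22 to -0.02.

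Processed pseudogenes, intronless copies of mRNAs, are frequent for ACTB, ACTG1 and TPM3. The table holds 10 named ACTB pseudogenes, 20 of ACTG1, 8 of TPM3 and 1 of TPM4, and their counts came to 0.296% of the counts of ACTB, 0.0397% of ACTG1 and 0.0842% of TPM3. ACTBP2 had 567 and 648 counts with carnosine and 1040 and 814 in controls, and ACTBP11 had 196 and 207 with carnosine and 305 and 348 in controls. ACTBP7 had 113 and 105 counts with carnosine and 33 and 61 in controls (log2 fold change 1.41, adjusted p = 0.0849). The others with a mean count of at least 10 were ACTG1P3, ACTG1P14, ACTG1P17, ACTG1P20 and TPM3P7, with log2 fold changes from 0.57 to 1.24 and adjusted p of 0.207 or more. None of the 8 passed in edgeR, and whether their reads came from the pseudogenes or from the parent genes was not tested. With pseudogene counts added to the parents, 0 of the 10 genes passed in edgeR and their median log2 fold change was -0.38.

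RefSeq promoter windows (GRCh38.p14, 250 bases before to 50 after a start site) were at hand for 7 of the 10 genes, in 12 windows. ACTB, TAGLN and MYL9 had none and were not searched. The CArG box was searched on both strands as CCWWWWWWGG (W is A or T), with a match that reads alike on both counted once. It occurred in 1 window each of ACTG1 and TPM4 and in 1.29% of 35116 windows of all genes. Forms of the box with a base off, and bases outside the windows, were not searched, so a gene without a match may still carry a box. TATAAA was in 0 of the 12 windows and in 11.5% of all. The 2 matches are shown with 40 bases on each side, because they are the element through which SRF is known to act on genes of this family. Capitals mark the box, and both sequences run 5′ to 3′ on the strand of the gene, ACTG1 at chr17:81512844-81512933 (minus strand) and TPM4 at chr19:16067325-16067414 (plus strand).
ACTG1: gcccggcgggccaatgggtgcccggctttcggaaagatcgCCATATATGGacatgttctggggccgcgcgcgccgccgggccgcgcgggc
TPM4: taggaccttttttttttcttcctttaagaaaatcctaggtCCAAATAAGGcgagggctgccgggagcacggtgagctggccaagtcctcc
The ACTG1 box begins 94 bases and the TPM4 box 173 bases before the start site. Of these 2 genes, ACTG1 was 1.36-fold lower with carnosine and TPM4 1.05-fold lower, and neither passed. SRF had -0.02 ± 0.10 as its log2 fold change, and its cofactors MKL1 (MRTF-A) and MKL2 (MRTF-B) had 0.08 ± 0.16 and -0.36 ± 0.14 (SE; edgeR adjusted p = 0.927, 0.818 and 0.151). MYOCD, the muscle cofactor, had no count. SCAI, which represses the MRTF cofactors, rose, with 21.6 and 23.8 CPM with carnosine and 16.1 and 16.3 CPM in controls (0.48 ± 0.11, adjusted p = 0.0490). That call ended in limma-voom (adjusted p = 0.0525) and without carnosine replicate 2 (0.102), control replicate 1 (0.210) or control replicate 2 (0.201).

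Of 143 tested genes in 12 other lists of the actin cytoskeleton, each counted once, 6 rose and 6 fell. These 12 are 8.39% of the tested genes, near the 8.31% called over all genes, and the median log2 fold change was -0.08. Of 3 other tested actins 0 passed, with ACTBL2 at 43 and 86 counts with carnosine and 12 and 28 in controls, and ACTG2 at 17 and 43 with carnosine and 32 and 75 in controls. Of 4 paralogues of TAGLN and CNN1 and 6 tested myosin II chains 0 passed, and the abundant TAGLN2, CNN2, MYH9 and MYL6 had log2 fold changes of -0.18, 0.005, -0.26 and -0.09. Tropomodulin 1 (TMOD1), which caps the slow end of filaments together with tropomyosin, rose 3.35-fold to 6.79 ± 0.54 CPM with carnosine, against 2.02 ± 0.49 CPM in controls (SD, n = 2 each; adjusted p = 0.0142), the 1 of 5 tested troponins and tropomodulins to pass. Among 9 tested smooth muscle genes SYNPO2 rose 1.98-fold, and SMTN (smoothelin) and PDLIM7 fell by 0.55 and 0.69 on the log2 scale.

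Of 20 tested genes of monomer binding and filament turnover 0 passed, TMSB10 and CFL1 having -0.02 and -0.05. The Arp2/3 subunits ARPC1A and ARPC1B fell by 0.56 and 0.43, among 19 genes of branched nucleation, and the ARPC1B call ended without each of the 4 libraries in turn (adjusted p from 0.0640 to 0.227). Of their exonic bases, 58.4% (ARPC1A) and 32.4% (ARPC1B) are shared with ENSG00000284292 on the same strand, and 45.0% of those of TMOD1 lie under TSTD2 on the other strand. The part of these overlaps in the counts was not tested. The formin FMN1 rose 1.57-fold among 16 formins and related genes. Among 21 tested crosslinkers SYNPO and LIMA1 rose 1.92-fold and 1.51-fold, and CSRP2 and PDLIM7 fell by 1.31 and 0.69. Of 18 tested focal adhesion genes 0 passed, with TLN1 and VCL at -0.30 and 0.007. MICAL1, an oxidase that disassembles filaments, was 2.18-fold lower (19.5 ± 2.49 CPM with carnosine, 42.4 ± 1.35 CPM in controls, adjusted p = 0.0113), the 1 of 18 tested genes of actin folding and modification to pass. In the 5 lists with 0 calls by edgeR, an unadjusted p under 0.05 was reached by 1 other actin, 1 paralogue, 0 myosin II chains, 3 of 20 genes of monomer binding and turnover and 7 of 18 of focal adhesions, beside 27.4% of all genes. In these lists DESeq2 called 1 other actin and 1 gene of turnover higher, and 1 gene of turnover and 3 of focal adhesions lower, and limma-voom called 0, where they called 13.5% (DESeq2) and 8.09% (limma-voom) of all genes. Of the 12 calls over all lists, 8 ended without control replicate 1 (adjusted p from 0.0694 to 0.227), 9 without control replicate 2 (0.0660 to 0.201), 3 without carnosine replicate 1 (0.0620 to 0.0723) and 2 without carnosine replicate 2 (0.0899 to 0.102), and those of TMOD1, PDLIM7 and MICAL1 held in all 4.

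**Figure D5:**
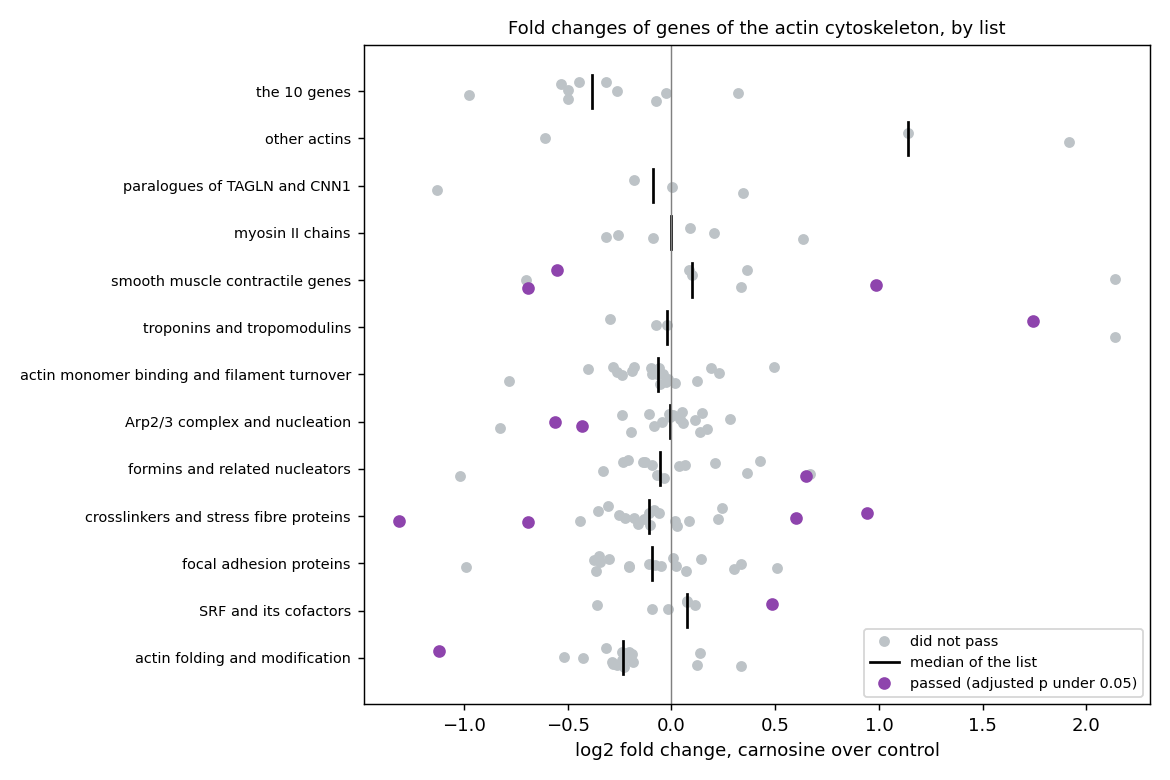
Log2 fold changes, carnosine over control, of the 10 genes (top row) and of the tested genes of 12 lists of the actin cytoskeleton, 1 point a gene, with the median of each list as a black line. Purple points passed at an adjusted p under 0.05 in edgeR, 6 rises and 6 falls with PDLIM7 drawn in 2 lists, and no point of the top row is purple.

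By the profile over the 4 libraries, the genes most like ACTB, the gene of the 10 with the most counts, were BZW1, ADA and CRIP2, with root mean square differences of 0.0033, 0.0061 and 0.0092 in centred log2 CPM among 11966 candidates. A set of 4 libraries fixes such a profile only loosely.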

How the data were processed

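Total RNA of U87 cells was depleted of ribosomal RNA and sequenced with a stranded kit on 1 flow cell, per the labels' protocols. The submitters' processing notes name hg38 and the tools HTSeq 0.6.1, HISAT2 2.1.0 and bcl2fastq 2.17.0, and the authors deposited whole-number counts per gene, not normalized. The annotation release, the strand setting and the treatment of reads with several matches went unstated (not given in the sources used here). The table had 0 further sample columns, and the columns were matched to samples by their labels. Replicates were not copies of each other: the chi-square of their counts over its degrees of freedom was 39.7 with carnosine and 25.7 in controls.

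The counts were tested with edgeR 4.0.16 (R 4.3.3), with TMM scaling, filterByExpr defaults and only the group in the model. The test was a two-sided quasi-likelihood F test, with Benjamini-Hochberg adjustment over 16340 genes and a threshold of 0.05. Afterwards the same fit was run on counts simulated with the means and dispersions estimated here. Such a run cannot test the assumptions it shares with the fit, and its outcome is not given here. Fold changes are carnosine over control, the SE is the log2 fold change over the root of F, and 95% intervals take the total degrees of freedom of the fit. TPM used merged exons of GENCODE 29, which matched 57881 genes. DESeq2 1.42.0 and limma 3.58.1 (voom) were alternatives, as were other scalings, filters and left-out libraries. The 10 genes and all lists were chosen with earlier results of these data known. The text names all 10 genes, up to 4 passing genes of each list with the largest change (or, with 0 passing, the 2 with the most counts), pseudogenes with a mean count of at least 10, and the 3 genes most like the gene of the 10 with the most counts. SRF, MKL1 and MKL2 fall outside that rule and were added after their values were seen. With 2 libraries a group, exact tests cannot go below p = 0.333. 1 pathway list and 1 marker gene are not reported here. Protein identity, listed among the planned results, was replaced by identity of coding bases.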

Additional observations from a re-analysis of the deposited data

How the results depend on the processing

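Counts of calls and several fold changes depended on the setting. The main fit called 1358 of 16340 genes (645 higher and 713 lower with carnosine), 0 of the 10 genes, and 6 rises and 6 falls among the pathway genes. No filter on low counts gave 3145 of the 26103 genes it tested (1514 higher and 1631 lower). In that setting 4 of the 10 genes fell (ACTG1 -0.45, ACTA2 -0.50, TPM1 -0.54, TPM3 -0.50), with 13 rises and 18 falls among the pathway genes. DESeq2 gave 2211 (1033 and 1178), 3 fallen (ACTG1 -0.44, TPM1 -0.53, TPM3 -0.49) and 10 and 12. limma-voom gave 1322 genes and 1 of the 10 fallen (TPM3 -0.50), and total counts only 1 (TPM3 -0.48). A test against a fold of 1.5 gave 23 (15 and 8) and 0 and 0. TPM denominators as library sizes, chosen after the data were seen, gave 323 (198 and 125), 1 fallen (ACTG1 -0.49) and 1 and 1, and shifted the median of all genes by -0.017.

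Leaving out 1 library at a time gave 505 to 1595 genes (235 to 729 higher, 270 to 866 lower), 0 to 4 of the 10 genes fallen, and 1 to 8 rises and 2 to 13 falls in the pathway. Log2 fold changes ran from -0.44 to -0.11 for ACTB, -0.68 to -0.25 for ACTG1, -1.22 to -0.022 for ACTA2, -0.60 to 0.016 for TAGLN, -1.11 to -0.86 for CNN1, -0.20 to 0.14 for MYL9, -0.73 to -0.35 for TPM1, 0.23 to 0.39 for TPM2, -0.60 to -0.41 for TPM3 and -0.18 to 0.028 for TPM4. Among other named genes signs turned for CNN2 (-0.0055 in limma-voom, -0.0077 with the replicate block, -0.032 with TPM denominators, -0.20 to 0.18 with 1 library left out) and VCL (-0.023 with TPM denominators, -0.12 to 0.11 with 1 left out). With 1 library left out they also turned for CFL1 (-0.20 to 0.076), MYL6 (-0.19 to 0.00063), ACTG2 (-1.60 to 0.32) and TMSB10 (-0.069 to 0.024, and 0.0050 with total counts only). Differences in tropomyosin share, carnosine minus control, moved by more than the SD pooled over both groups with coding length (to 0.73 percentage points for TPM2 and 6.86 for TPM4) and with longest transcripts (to -4.84 for TPM3).

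With the replicate block, 5767 of 16340 genes passed (2771 higher, 2996 lower). Beside these, 1 of the 10 rose (TPM2 0.32) and 5 fell (ACTG1 -0.46, ACTA2 -0.57, CNN1 -0.98, TPM1 -0.53, TPM3 -0.50), with 19 rises and 40 falls in the pathway. The labels do not say that a number pairs samples. Deviations of same-numbered samples correlated at 0.315 across genes. In CPM, replicates 1 and 2 differed in the same direction in both groups for 9 of the 10 genes. Of these, 8 were lower in replicate 1 of both groups, and the share of all genes that did so was not counted. Still, 2 pairs cannot settle the pairing. The cause of these differences between settings was not tested.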
